A study of Mus musculus with 2 samples.

Results

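The nuclear genes of the mitochondrial respiratory chain were followed here in a list of binding sites of the transcription factor Rfx6 in Min6B1, a mouse line of insulin-secreting β cells. Members were chosen by symbol among the protein-coding genes that GENCODE M1 places on the 19 autosomes: symbols starting with Nduf, Uqcr, Sdh followed by a, b, c or d, Cox4 to Cox8, or Atp5. This rule found 91 genes (90 symbols, since Ndufb8 is annotated as a pair of genes) of 21418. The rule itself uses no measured value, although the group was picked with earlier results of these data known. By what the genes encode, 79 are structural subunits of the 5 complexes. The other 12 are the assembly factors Ndufaf1, Ndufaf2, Ndufaf3, Ndufaf4, Sdhaf1 and Sdhaf2, the paralogue Ndufa4l2, the supercomplex factor Cox7a2l, and Cox4nb, Atp5s, Atp5sl and Atp5l-ps1, which carry the symbol without being a subunit. A further 3 genes with such symbols (Ndufa1, Ndufb11 and Cox7b) are X-linked and outside the rule.

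Min6B1 cells grown in 25 mM glucose were transfected with 24 µg of the plasmid pCMV-Tag2A-3HA-Rfx6, which carries HA-tagged Rfx6 and is named for the CMV promoter, and were harvested 2 days later. Chromatin carrying the tag was pulled down with the anti-HA antibody 12CA5 and its DNA sequenced (ChIP-seq). The control was ChIP with the same antibody on cells that the labels call Min6b1, and whether these received a plasmid is not clear, since the growth text of both samples is identical. With 1 library per condition no value has a replicate error and no test between conditions could be made. Rfx6 was overexpressed in these cells. The precipitate reports binding and not expression, so the β cell identity of the line was not checked with markers, and whether a member is transcribed was not measured.

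Oxidative phosphorylation is carried out by 5 complexes of the inner mitochondrial membrane. Complexes I and II pass electrons from NADH and succinate to ubiquinone, complex III passes them on to cytochrome c, complex IV passes them to oxygen, and complex V, the ATP synthase, uses the resulting proton gradient to make ATP. In β cells the rise in the ATP/ADP ratio after glucose closes ATP-sensitive potassium channels and starts insulin secretion. Most subunits are encoded in the nucleus, and their genes often have CpG-rich promoters, sometimes shared head to head with another gene. Rfx proteins bind the X-box, an inverted repeat with a few bases between its arms.

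A summit of a 3HA-Rfx6 peak, the position of highest signal, lay within 1 kb of the start of 27 of the 91 genes, or 29.7% (95% Wilson interval 21.3 to 39.7%, counting error only). Of all autosomal protein-coding genes, 20.8% had one. Within 10 kb the count was 44 of 91, or 48.4% (38.4 to 58.5%), beside 37.0% of all genes. The start was the 5′ end of the annotated gene. The median distance from the start to the nearest summit was 11.9 kb for members and 23.5 kb over all genes. Genes of 1 library are not replicates, and these shares describe this peak list. With structural subunits alone, 20 of 79 (25.3%, interval 17.0 to 35.9%) had a summit within 1 kb. Of the 12 other members 7 had one. At the 10 kb limit the count was 36 for subunits (45.6%, interval 35.0 to 56.5%) and 8 for the others. Both subunit intervals include the share of all genes, 20.8% and 37.0%, so subunits alone were not set apart from the background by counting error.

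**Figure D1:**
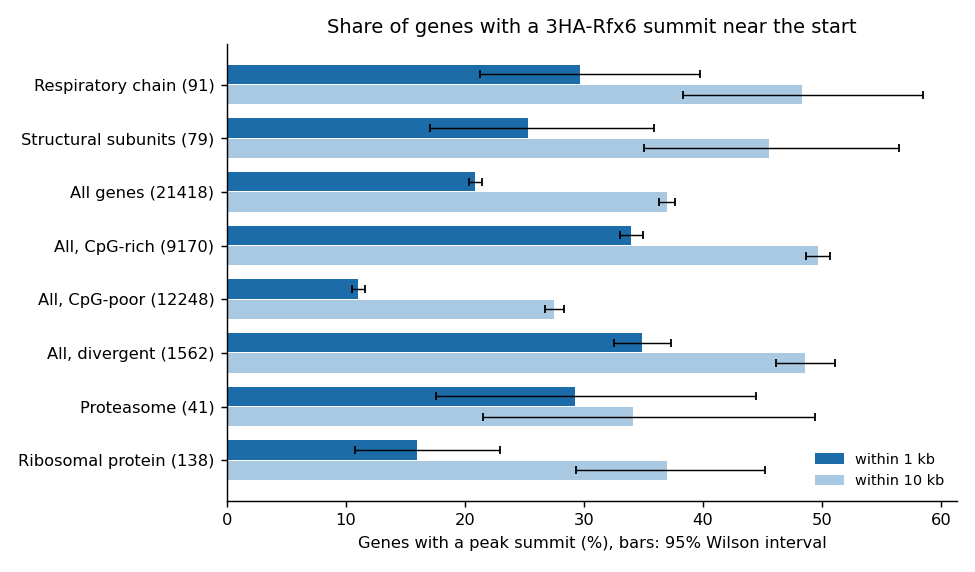
Horizontal bars give the percentage of genes with a peak summit within 1 kb (dark) and within 10 kb (light) of the gene start, with the number of genes in parentheses and whiskers for the 95% Wilson interval. Respiratory chain genes reached 29.7% and 48.4%, above all genes (20.8% and 37.0%) and close to all genes with CpG-rich promoters (34.0% and 49.7%).

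Among the higher peaks the members stood near all genes. With peaks of a fold enrichment of at least 10 alone, 9 of 91 members (9.89%) kept a summit within 1 kb, beside 9.01% of all genes, and 15 (16.5%) kept one within 10 kb, beside 17.9%. In the peak list the median number of reads in the promoter peaks was 83 for the 27 members (range 38 to 460) and 82 for all genes with a summit within 1 kb. The median fold enrichment, the ratio of the peak to its background, was 7.53 (range 4.0 to 53.4) for members and 8.94 for all such genes. Among the 10% of peaks with the most reads were those of Ndufb5, Sdhd and Cox7a2l, 3.30% of members, beside 2.87% of all genes. Each of the 27 members had 1 summit within 1 kb, and the 27 genes drew on 26 peaks, since Cox4i1 and Cox4nb share theirs.

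**Figure D2:**
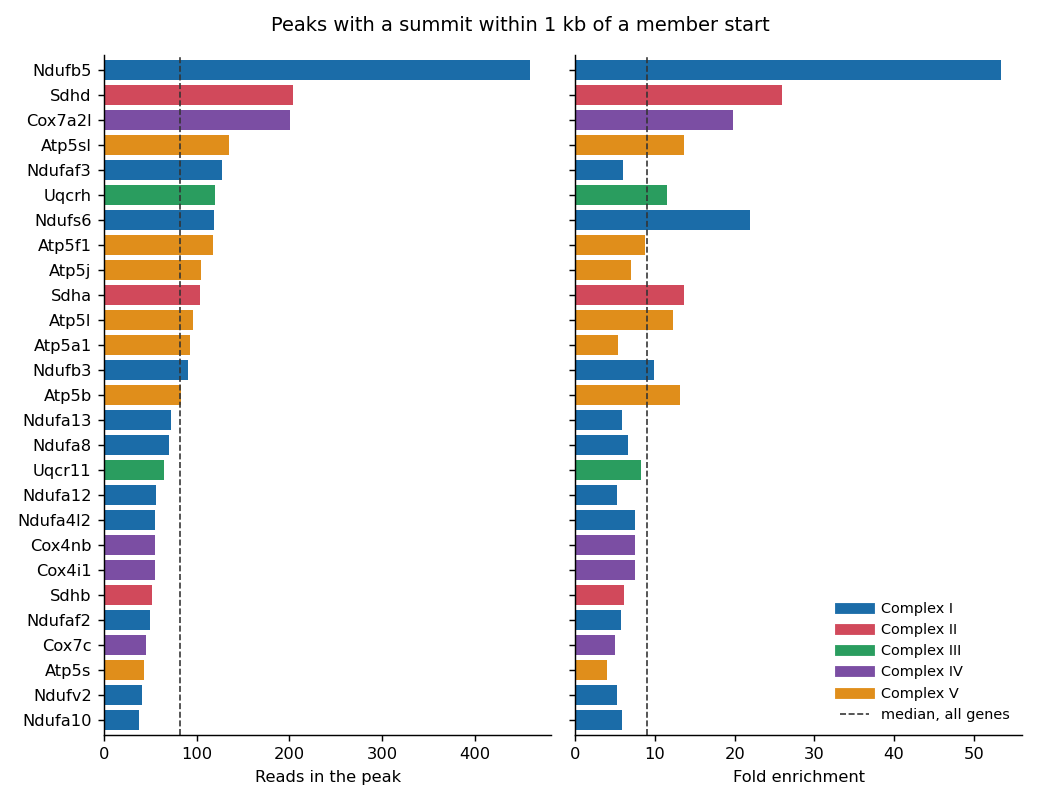
For the 27 members with a summit within 1 kb, bars give the reads in the peak (left) and its fold enrichment (right), colored by complex; dashed lines mark the medians over all genes with such a summit, 82 reads and 8.94. Ndufb5 stands apart with 460 reads and a fold enrichment of 53.4, followed by Sdhd with 204 reads and Cox7a2l with 201.

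Sequences around the summits are given for 6 members, on the strand of the gene and from NCBIM37 (mm9). They are those with an X-box within 100 bases of the summit (Ndufb5, Atp5f1 and Ndufa4l2) and the next highest peaks (Sdhd and Cox7a2l). The peak of Ndufs6, which has the third highest fold enrichment, is also given. Windows reach 100 bases to each side of the summit, and that of Atp5f1 is cut where an untranslated exon begins. Capitals mark the X-box (GTNNCC, 0 to 3 bases, NGNAAC, on either strand) or, where there is none, a single arm (GTTNCC on either strand).
Ndufb5 (chr3:32636344-32636544, plus strand): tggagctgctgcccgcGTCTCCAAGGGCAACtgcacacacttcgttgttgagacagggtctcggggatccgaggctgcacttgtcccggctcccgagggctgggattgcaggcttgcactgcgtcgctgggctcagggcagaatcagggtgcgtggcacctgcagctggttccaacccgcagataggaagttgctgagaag
Atp5f1 (chr3:105762704-105762843, minus strand): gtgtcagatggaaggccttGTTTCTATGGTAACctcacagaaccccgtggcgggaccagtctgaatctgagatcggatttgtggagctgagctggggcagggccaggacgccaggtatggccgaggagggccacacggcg
Ndufa4l2 (chr10:126952710-126952910, plus strand): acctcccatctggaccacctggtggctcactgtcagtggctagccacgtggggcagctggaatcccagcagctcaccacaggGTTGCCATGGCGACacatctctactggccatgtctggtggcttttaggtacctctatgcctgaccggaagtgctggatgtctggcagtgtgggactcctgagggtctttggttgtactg
Sdhd (chr9:50412303-50412503, minus strand): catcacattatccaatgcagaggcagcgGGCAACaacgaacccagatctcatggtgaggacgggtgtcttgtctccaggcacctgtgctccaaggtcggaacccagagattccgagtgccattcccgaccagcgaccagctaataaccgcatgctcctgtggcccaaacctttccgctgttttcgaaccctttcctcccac
Cox7a2l (chr17:83913265-83913465, minus strand): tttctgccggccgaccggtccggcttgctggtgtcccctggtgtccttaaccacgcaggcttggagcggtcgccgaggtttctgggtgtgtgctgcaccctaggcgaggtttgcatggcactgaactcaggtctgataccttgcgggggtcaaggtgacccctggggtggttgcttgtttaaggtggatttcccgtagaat
Ndufs6 (chr13:73465655-73465855, minus strand): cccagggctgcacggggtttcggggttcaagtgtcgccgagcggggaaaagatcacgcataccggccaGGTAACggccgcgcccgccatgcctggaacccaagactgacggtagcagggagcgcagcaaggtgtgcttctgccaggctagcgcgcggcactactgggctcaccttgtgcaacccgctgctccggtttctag

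An X-box was present in this window in 3 of the 26 promoter peaks of members, or 11.5% (95% Wilson interval 4.0 to 29.0%), beside 14.2% of the 4051 promoter peaks of all genes. Moved 1 kb to the right, equal windows held it in 0 of 26, which allows a share of up to 11.5% (3 counts of 26; Wilson upper limit 12.9%), and in 1.80% of the 4051. A single arm was present in 12 of the 26 (46.2%) and in 53.6% of the 4051. The shares of members were thus not above those of all promoter peaks for either pattern. The X-box of Atp5f1 lay 7 bp from the summit, that of Ndufa4l2 5 bp and that of Ndufb5 70 bp. The highest peak among members thus had its X-box off the summit, while Sdhd and Ndufs6 had a single arm and Cox7a2l had neither.

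Complex I, the NADH dehydrogenase, had a summit within 1 kb in 11 of 41 genes (26.8%, interval 15.7 to 41.9%). Within 10 kb it was 20 (48.8%, interval 34.3 to 63.5%). The shares of all genes were 20.8% and 37.0%. The 11 include Ndufaf2, Ndufaf3 and Ndufa4l2, which are not structural subunits. Ndufb5 (ENSMUSG00000027673.6), an accessory subunit of the membrane arm, is a plus-strand gene at chr3:32635912-32650488. Its peak extended from 32634811 to 32637182 with the summit at 32636444, in an intron 532 bp after the start. It held 460 reads with a fold enrichment of 53.4 and a score, which is minus 10 times the log10 p-value, of 2948. Only 0.532% of peaks in the list reached that many reads and 0.275% reached that enrichment. Its FDR, the share of calls at that score found with ChIP and control exchanged, was 21.4%, above the median of 3.0% for the members' promoter peaks. The lowest FDR of these peaks, 1.84%, went with their lowest score, 55.5 (Ndufv2). A higher FDR thus did not mark a weaker peak here. The summit was nearer, at 375 bp, to the start of Mrpl47, which encodes a protein of the mitochondrial ribosome.

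Of the 7 core subunits of complex I, which carry the redox centers, Ndufv2 alone had a summit within 1 kb, under which MACS counted 41 reads at 5.18-fold enrichment, near the low end of the 27. Accessory subunits, which surround the core, had 7 of 29 (24.1%) and the core subunits 14.3%, beside 20.8% of all genes. Ndufs6, an accessory subunit of the matrix arm, held 118 reads at 21.9-fold enrichment, its summit lying 235 bp after the start. Ndufb3 had 90 reads with a fold enrichment of 9.88, and Ndufa13 had 72 reads with 5.88. Of the 7 accessory subunits, Ndufb5 and Ndufs6 had a fold enrichment above 10. Ndufa8, a subunit of the intermembrane space side, had the summit nearest to its start of all members, 64 bp after it, with 70 reads and a fold enrichment of 6.59. Ndufa12 had 56 reads with a fold enrichment of 5.24, and Ndufa10 had 38 reads with 5.88, the fewest reads of the 27.

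Assembly factors help to build the complex without staying in it. Ndufaf3 had 127 reads but a fold enrichment of 5.99, and Ndufaf2 had 49 reads with 5.77, whereas the nearest summits of Ndufaf4 and Ndufaf1 were 47.5 and 79.9 kb away. The order of Ndufaf3 by reads and by fold enrichment differs: 21.0% of peaks reached its reads and 79.8% reached its enrichment. Ndufa4l2, a paralogue of Ndufa4 known to be induced by hypoxia, had 55 reads with a fold enrichment of 7.48 at 815 bp after its start. Ndufa4 itself, since assigned to complex IV, had its nearest summit 357 kb away.

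Complex II, the succinate dehydrogenase, is made of 4 subunits. Of the 4, 3 had a summit within 1 kb (interval 30.1 to 95.4%), beside 20.8% of all genes. Sdhd (ENSMUSG00000000171.4), a membrane anchor, is a minus-strand gene at chr9:50404443-50411954. Its peak, from 50411612 to 50413113, held 204 reads with a fold enrichment of 25.9, and its summit at 50412403 was 449 bp before the start. Sdha, the flavoprotein, had 103 reads with a fold enrichment of 13.7, with the summit 439 bp before the start. Sdhb, the iron-sulfur subunit, had 51 reads with 6.12, with the summit in a coding exon 218 bp after the start. The peaks of Sdhd and Sdha lay upstream at nearly the same distance, and both summits were nearer to a head-to-head neighbor, Timm8b at 397 bp and Ccdc127 at 410 bp. Sdhc, the other membrane anchor, had no summit within 10 kb, the nearest being 27.5 kb away with 71 reads. Of the assembly factors, Sdhaf1 had a summit at 4.82 kb with 77 reads and Sdhaf2 had its nearest at 51.9 kb.

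Complex III, the cytochrome bc1 complex, had a summit within 1 kb in 2 of 8 genes (interval 7.1 to 59.1%), beside 20.8% of all genes. Its cytochrome c1 gene, Cyc1, does not carry the Uqcr symbol and is counted with the other genes of the pathway. Uqcrh, the hinge protein that contacts cytochrome c1, had 120 reads with a fold enrichment of 11.5. Its summit lay 996 bp before the start, the member just inside the 1 kb limit, and was nearer to the start of Lrrc41. Uqcr11, a small subunit, had 65 reads with a fold enrichment of 8.24 and a summit 178 bp after its start. The catalytic Rieske protein Uqcrfs1 had a summit at 5.60 kb with 65 reads and a fold enrichment of 10.5, and Uqcrc1, a core protein, at 4.18 kb with 44 reads. Uqcrc2, Uqcrb, Uqcrq and Uqcr10 had none within 10 kb, with nearest summits at 22.4 to 37.1 kb.

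Complex IV, the cytochrome c oxidase, had a summit within 1 kb in 4 of 18 genes (interval 9.0 to 45.2%), beside 20.8% of all genes. The 4 include Cox7a2l and Cox4nb, which are not subunits. Cox7a2l (ENSMUSG00000024248.7), a factor that joins complexes III and IV, is a minus-strand gene at chr17:83901259-83913673. Its peak, from 83912660 to 83914016 with the summit at 83913365 in an intron 308 bp after the start, held 201 reads with a fold enrichment of 19.8. Cox4i1, the ubiquitous form of subunit 4, shared a peak of 55 reads and a fold enrichment of 7.53 with Cox4nb, whose product belongs to the ER membrane. The starts of these genes are 178 bp apart on opposite strands. Cox7c had 45 reads with a fold enrichment of 4.94, also below the 8.94 median of all genes with a promoter summit. The members named for tissue isoforms (Cox4i2, Cox6a2, Cox6b2, Cox7a1, Cox7b2, Cox8b and Cox8c) had a summit within 10 kb in 0 of 7 cases (95% Wilson interval 0 to 35.4%), beside 5 of 9 for the other subunits. Their nearest summits were 12.3 kb (Cox4i2) to 452 kb (Cox7b2) away, and 7 of 7 had promoters that were not CpG-rich, a class in which 27.5% of all genes had a summit within 10 kb. That share lies inside the interval for the 7 isoforms.

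Complex V, the ATP synthase, had a summit within 1 kb in 7 of 18 genes (interval 20.3 to 61.4%), beside 20.8% of all genes. The 7 include Atp5s and Atp5sl, which carry the symbol without being a subunit. The catalytic head is built from Atp5a1 and Atp5b. Atp5b, the β subunit, had 83 reads with a fold enrichment of 13.2, with the summit 420 bp before the start. Atp5a1, the α subunit, had 93 reads with a fold enrichment of 5.32, with the summit in a coding exon 362 bp after the start. The peak of Atp5a1 thus had more reads and a lower fold enrichment than that of Atp5b. The other subunits of the head and central stalk, Atp5c1, Atp5d and Atp5e, had none within 10 kb. In the peripheral stalk, which holds the head in place, Atp5f1 had 117 reads with a fold enrichment of 8.71 and Atp5j had 104 reads with 6.96.

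Atp5f1 (ENSMUSG00000000563.11) is a minus-strand gene at chr3:105745616-105763017, with its summit at 105762804, in an intron 213 bp after the start. Atp5o and Atp5h, also of the peripheral stalk, had nearest summits 22.3 and 11.9 kb from their starts. Atp5o is annotated over 247 kb, beside a median of 7.51 kb for members, and 6 summits lay inside this span, the most of any member. Whether these summits belong to Atp5o was not tested. Atp5l, a membrane subunit, had 96 reads with a fold enrichment of 12.2. The c ring, through which protons pass, is encoded by Atp5g1, Atp5g2 and Atp5g3, and none of the 3 had a summit within 1 kb: the nearest were 1.20, 35.0 and 273 kb away. Atp5sl had 135 reads with a fold enrichment of 13.6 and Atp5s had 43 reads with 4.0, the lowest fold enrichment of the 27.

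**Figure D3:**
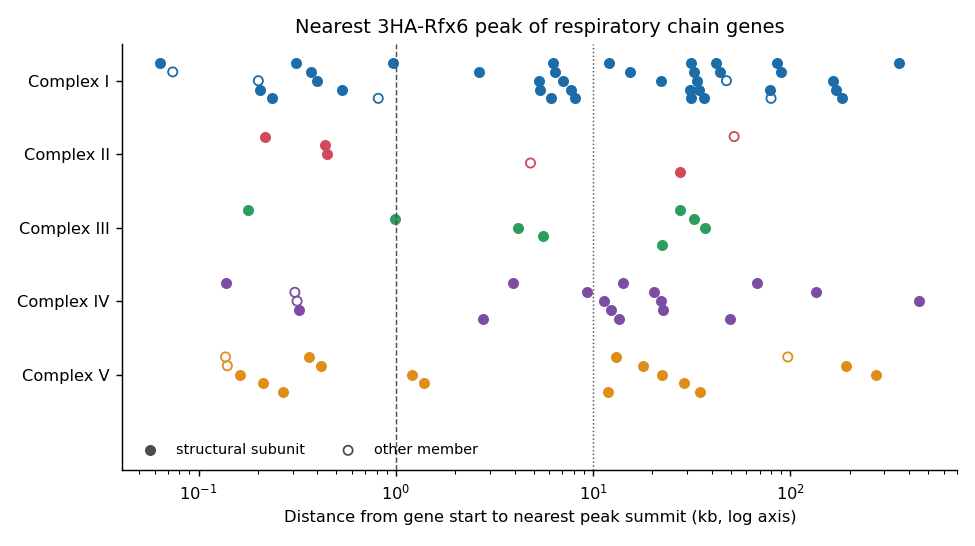
Each point is a member, placed by the distance from its start to the nearest peak summit in kb on a log axis, in a row for its complex; vertical offsets only separate points, filled points are structural subunits and open points other members. Dashed and dotted lines mark 1 kb and 10 kb. Distances ran from 0.064 kb (Ndufa8) to 452 kb (Cox7b2).

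A further 17 members had their nearest summit between 1 and 10 kb. They are Atp5g1, Atp5j2, Ndufs8, Cox5b, Cox6a1, Uqcrc1, Sdhaf1, Ndufs7, Ndufa11, Uqcrfs1, Ndufb4, Ndufa5, Ndufa3, Ndufa7, Ndufv3, Ndufc2 and Cox7a2. Among these Ndufs7, a core subunit of complex I, had the most reads, 112, with a fold enrichment of 9.88 at 5.33 kb in an intron. For Cox6a1, Sdhaf1, Ndufa11, Ndufa3, Ndufa7 and Ndufv3 the summit was nearer to the start of another protein-coding gene. A count limited to genes whose own start was the nearest was made at 1 kb only. Next to the 1 kb limit were Ndufa13 (969 bp) and Uqcrh (996 bp) inside, and Atp5g1 (1203 bp, 42 reads) and Atp5j2 (1393 bp, 59 reads) outside. Next to the 10 kb limit were Cox7a2 (9.34 kb, 59 reads) inside and Cox8a (11.3 kb, 62 reads) outside. The remaining 47 members had none within 10 kb: 21 of complex I, 2 of complex II, 4 of complex III, 11 of complex IV and 9 of complex V. Regions above the p-value limit of 1e-05 are not in the list, and the peak with the fewest reads held 24, so weaker binding was not detectable.

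Most promoter summits of members lay just inside the gene. The summit was after the start in 19 of 27 (70.4%), beside 67.1% of all genes with a summit within 1 kb, and after the start by at most 500 bp in 17 (63.0%), beside 47.1%. The median distance was 308 bp for both. In 13 of the 27 (48.1%) the summit was in an intron of the member, beside 29.2% of all such genes, and in 2 (Sdhb and Atp5a1) it was in a coding exon (7.41%, beside 16.3%). These genes are short, with a median length of 7.51 kb beside 15.5 kb for all genes. Over whole gene bodies, 29 members (31.9%) held a summit, beside 32.5% of all genes.

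**Figure D4:**
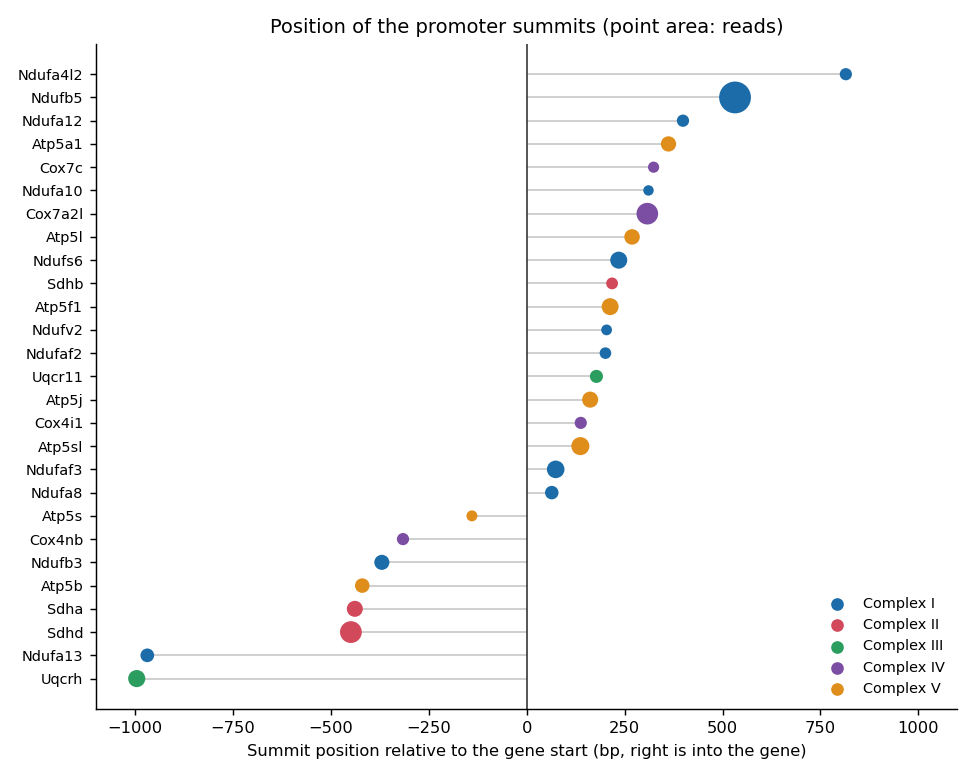
The summit position of the 27 promoter peaks relative to the gene start is given in bp, with the direction of the gene to the right; point area is proportional to the reads, and colors mark the complex. In 19 genes the summit lay after the start, and Sdhd, Sdha and Atp5b lay between 420 and 449 bp before it.

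Many of these promoters are shared. Another protein-coding start lay within 1 kb of the summit for 12 of the 27 members (44.4%), beside 18.4% of all genes with a promoter summit. For 7 (25.9%, beside 9.20%) that other start was the nearer: Atp5s, Cox4nb, Ndufb3, Sdha, Sdhd, Ndufb5 and Uqcrh. The nearer neighbors included Cox4i1 for Cox4nb, Fam126b for Ndufb3, Ccdc127 for Sdha, Timm8b for Sdhd, Mrpl47 for Ndufb5 and Lrrc41 for Uqcrh. Farther from the summit than the member itself were Morn5 for Ndufa8, Ercc8 for Ndufaf2, Wdr77 for Atp5f1, Cox4nb for Cox4i1 and Gabpa for Atp5j. Counting only genes whose own start was the nearest to the summit, a count chosen after seeing the data, 20 of 91 members (22.0%) had a summit within 1 kb, beside 18.9% of all genes. Atp5j shared its peak with Gabpa, whose start was 538 bp from the summit and whose product is a known activator of respiratory chain genes. For such peaks the binding cannot be given to one gene or the other.

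A start of another gene on the opposite strand within 1 kb upstream, a divergent promoter, was found for 23 of the 91 members (25.3%), beside 7.29% of all genes. Promoters were called CpG-rich when the 300 bases around the start (250 before, 50 after) had an observed to expected CpG ratio of at least 0.6 and at least 50% G and C, which held for 59 members (64.8%), beside 42.8% of all genes. Among CpG-rich promoters, 19 of 59 members (32.2%) had a summit within 1 kb, beside 34.0% of all genes. Among the others, 8 of 32 (25.0%) had one, beside 11.0%. Among divergent promoters it was 9 of 23 (39.1%), beside 34.9%, and among the rest 18 of 68 (26.5%), beside 19.7%. Within 10 kb, 30 of the 59 CpG-rich (50.8%, beside 49.7%) and 14 of the 32 other members (43.8%, beside 27.5%) had a summit. By strand arrangement it was 13 of the 23 divergent (56.5%, beside 48.6%) and 31 of the 68 other members (45.6%, beside 36.1%). Within CpG-rich promoters the share of members was thus near the background, while among the other promoters it lay above. It also lay above in both groups by strand arrangement. The part of promoter type in the count of members was not tested.

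Short sequences of known regulators were then sought in the same 300 bases, on both strands, none of which contains another. The core of the NRF1 site (GCATGCGC), a regulator named for nuclear control of respiration, was present in 11 of 91 members (12.1%), beside 3.35% of all promoters. The ETS core (CCGGAAG), bound by Gabpa among others, was present in 19 (20.9%), beside 10.9%, and the YY1 core (AAGATGGCG) in 6 (6.59%), beside 1.84%. Each of these cores contains CG, and CpG-rich promoters were more frequent among members (64.8%) than among all genes (42.8%). Shares within CpG-rich promoters alone were not computed. The GC box (GGGCGG) was present in 43 (47.3%, beside 43.7%) and CCAAT in 35 (38.5%, beside 37.6%). The arm of the X-box (GTTNCC) was present in 43 (47.3%), beside 44.4%.

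By peak, the NRF1 core was present in 3 of the 27 members with a summit within 1 kb (11.1%; Uqcr11, Sdhb and Atp5l) and in 8 of the 64 without (12.5%), beside 4.21% of all genes with such a summit. No difference was tested. The X-box arm was present in 13 of 27 (48.1%) and 30 of 64 (46.9%), beside 49.6% of all genes with a promoter summit. The GC box was present in 17 of 27 (63.0%) and 26 of 64 (40.6%), and in 66.6% of all genes with a promoter summit. A match is a description of letters and not a bound site.

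Other genes of the pathway were taken from a list of 74, of which 72 were found among the autosomal genes. Of these, 21 (29.2%) had a summit within 1 kb and 30 (41.7%) within 10 kb, beside 20.8% and 37.0% of all genes. The intervals, 19.9 to 40.5% and 31.0 to 53.2%, include the shares of all genes. The peak of Gabpa in this list is also that of the member Atp5j. In coenzyme Q synthesis, which makes the carrier between complexes I or II and III, 5 of 13 had one within 1 kb. Adck4 had 586 reads and a 67.3-fold enrichment at 92 bp after the start, above each of the 27 members. Coq3 had 132 reads with 23.1, and Pdss2, Coq4 and Coq10a had 78 to 117 reads. The peak of Adck4 thus stood well above the others of that group.

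Assembly factors outside the rule had promoter summits in 3 of 5 genes for complex I (Ecsit, Tmem126b and Foxred1), in 2 of 3 for complex III (Lyrm7 and Bcs1l), in 4 of 13 for complex IV and in 0 of 4 for complex V. For complex IV these were Taco1, Cox18, Cox17 and Lrpprc, which regulates mitochondrial RNA, and Lrpprc held the most reads of them, 391, with a fold enrichment of 22.0. In a group listed as electron carriers, Etfdh, Gpd2 and Cyc1, the last a subunit of complex III, had summits within 1 kb (3 of 8) in peaks of 60 to 74 reads. Tfb2m and Mterfd1, which act in mitochondrial transcription (2 of 8), had 86 and 70 reads. Of the nuclear regulators, 1 of 9 (Gabpa) had a summit within 1 kb, and so had 1 of 9 genes of nucleotide and phosphate exchange, Vdac1, with 104 reads. Ucp2, an uncoupling protein, had its nearest summit 2.39 kb into the gene, and that peak held 200 reads at 32.5-fold enrichment.

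As other broadly used gene families, proteasome genes (Psma to Psmd and a number) and ribosomal protein genes (Rpl or Rps and a number) were taken. They were chosen by symbol alone, and genes that share such a symbol without encoding a subunit were not removed. Of the 41 proteasome genes, 12 (29.3%) had a summit within 1 kb and 14 (34.1%) within 10 kb. Of the 138 genes with a ribosomal protein symbol, 22 (15.9%) and 51 (37.0%) had one. The respiratory chain genes stood at 29.7% and 48.4%. The intervals for the 41 proteasome genes (17.6 to 44.5%) and the 91 members (21.3 to 39.7%) overlap widely at 1 kb, and no difference between families was tested.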

How the data were processed

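The 3HA-Rfx6 library and its control were single-end 50 base reads. Per the labels, the submitters used CASAVA 1.8.2, Bowtie (mm9) and MACS 1.4.2. Per the file headers, MACS kept at most 1 read per position and used a p-value cutoff of 1e-05; 33949757 of 49443917 ChIP reads and 3567375 of 16911298 control reads remained, so the background rests on a control 9.52 times shallower. The deposited list holds 23308 peaks, each with a read count without normalization, a fold enrichment (a ratio to the background), a score computed as minus 10 times the log10 p-value, and the percent FDR from exchanging ChIP and control. Control values beyond this were not analysed here.

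Summits (start + summit - 1) were compared with gene starts of GENCODE M1 (NCBIM37, the build mm9), for 21418 autosomal protein-coding genes, at 1 and 10 kb. Counts and shares are descriptions with 95% Wilson intervals, and no set test was run. Members and lists were chosen with earlier results of these data known. Named genes were every member with a summit within 1 kb, those between 1 and 10 kb, and paralogues and extremes beyond. Python 3.11.15, numpy 2.4.6, pandas 2.3.3, scipy 1.17.1, pysam 0.24.0 and matplotlib 3.10.9 were used; gene assignment and X-box search were tested on simulated data. The alternatives were stricter peaks, other starts and distances, whole peaks, structural subunits, and other X-box settings.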

Additional observations from a re-analysis of the deposited data

How the results depend on the processing

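No paired analysis was possible because each condition had a single library. For the same reason no replicate could be left out. Of 17 alternatives, 12 kept the count within 1.5 times or the value within its counting interval, and 5 did not. These labels compare the counts or values of members alone, and not their difference from all genes. For the median reads the interval was that of a single count of 83, which does not measure the spread between peaks. A fold enrichment of at least 10 left 9 members within 1 kb and 15 within 10 kb, and the 50% of peaks with the highest score left 13 (14.3%, beside 12.1% of all genes) and 19 (20.9%, beside 22.4%). Fewer peaks enter these counts by construction, and the shares then lay near those of all genes. A single X-box arm in place of the X-box gave 46.2% of member promoter peaks. The number near the start was 23 at 500 bp (25.3%, beside 15.0% of all genes), 29 at 2 kb (31.9%, beside 24.5%), 28 with any protein-coding transcript start (30.8%, beside 23.4%) and 29 with any base of the peak (31.9%, beside 23.7%). It was 20 with structural subunits alone (25.3%, beside 20.8%) and 20 for genes whose own start was the nearest (22.0%, beside 18.9%; added after seeing the data). The median reads were 77.5 with transcript starts.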
